A study of Mus musculus with 8 samples.

Results

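Tumor-associated macrophages (TAM) that had taken up collagen were compared with the whole tumor around them (Total tumor), to see which genes of myeloid cells the sort enriched and which it left behind. The comparison used 4 of the 8 libraries, 2 of TAM and 2 of Total tumor, chosen by their labels. It covered 13311 genes of the 23952 gene symbols in the table, and 282 of the 339 genes on 24 lists of myeloid cell types and functions were among them. Another 54 of the listed genes were in the table but too low to be tested, and the remaining 3 (Ly6g, Ms4a4a and Ms4a14) were not analysed here.

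The tumors were grown from Lewis lung carcinoma cells, a mouse lung cancer line selected for the red fluorescent protein dTomato and placed under the skin of both flanks. The hosts were transgenic Col1a1-GFP mice, in which the promoter of a type I collagen gene drives green fluorescent protein (GFP), so that the Fibroblast group is the cells that use that promoter. Collagen carrying an Alexa 647 dye was put into the tumors 24 h before they were taken apart. TAM were the cells with F4/80 on the surface and collagen inside that carried neither fluorescent protein. The labels call these cells M2 macrophages. Total tumor was RNA of whole Lewis lung carcinomas. Cells with dTomato (LLC) and with GFP (Fibroblast), 2 libraries of each, entered the same fit and show below where else a gene was expressed. The labels give no age, sex or further strain, and leave it unsaid if replicates 1 and 2 are separate animals. The p-values therefore measure only the spread between these libraries. Macrophages without collagen were not analysed here, so cells left out by the collagen gate and cells left out by the F4/80 gate cannot be told apart.

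Myeloid cells of a tumor include macrophages, the monocytes they arise from, neutrophils, dendritic cells and mast cells. Macrophages exposed to interleukin 4 take on the state called alternative activation or M2, with mannose receptor, arginase and resistin-like proteins, while bacterial products and interferon drive the classical state with inflammatory cytokines and nitric oxide synthase. Neutrophils store the calcium-binding proteins S100a8 and S100a9 in their cytosol, and mast cells store proteases and histamine in granules.

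Values are RPKM, the reads per kilobase of transcript and 1e6 reads, and are given for replicate 1 and then replicate 2. Differences are TAM minus Total tumor on the scale log2(RPKM + 1), which understates the change of low genes, with their standard errors (SE) and limma's Benjamini-Hochberg adjusted p over all 13311 genes. A gene rose or fell where that p was under 0.05. The depth, estimated from the lowest values, was 8.55 and 4.46 M reads in TAM and 9.96 and 4.71 M in Total tumor. Total tumor 2 differed from Total tumor 1 by transcript length, with a median log2 difference of 0.75 in transcripts under 1687 bases, the shortest of 4 equal groups, and -0.62 in the longest, against -0.20 and 0.25 between TAM 2 and TAM 1. As a measure of other cells in the sort, TAM 1 held a median of 0.487% and TAM 2 of 2.57% of the level that fibroblast genes had in Fibroblast. In whole-tumor RNA, fewer cells of a type and less RNA per cell cannot be told apart.

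Of the 282 myeloid genes tested, 157 rose in TAM (55.7%), 25 fell (8.87%) and 100 did not pass. Among all genes tested, 11.3% rose and 23.9% fell. Without the 10 genes used below as a macrophage reference, 54% of the myeloid genes rose and 9.19% fell. The lists were chosen with earlier results of these data known, so the contrast with all genes is a description only. The median log2 difference was 1.82 for the myeloid genes and -0.36 for all genes. Of all genes that passed, 32.2% were higher, and this share was 46.1% with upper-quartile rescaling, 50.4% with quantile normalization and 53.8% with a correction on transcript length, where the median of all genes was -0.12, -0.01 and 0.06. The 2 TAM libraries lay outside the range of the 2 Total tumor libraries for 229 of the myeloid genes, and for 62.1% of all genes tested. Of the 157 genes that rose, 59 passed in each of the 4 fits without 1 of the TAM or Total tumor libraries, and 11 of the 25 that fell did so. All 182 kept their sign in these fits, but for a gene whose groups do not overlap the sign cannot change there. Each such fit leaves 1 library in TAM or Total tumor, so a call can be lost with little change in the difference. The number that held was lowest without TAM 1 (67 higher and 15 lower) and TAM 2 (78 and 15).

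The 10 genes chosen as a macrophage reference, which most tissue macrophages share, all rose in TAM. Csf1r encodes the receptor for the main macrophage growth factor. It stood at 397 and 459 RPKM in TAM and at 46.2 and 74.3 in Total tumor (log2 2.84, SE 0.66, adjusted p = 0.0137). The complement gene C1qa stood at 3789 and 2436 in TAM and at 181 and 903 in Total tumor (log2 2.91, SE 0.87, adjusted p = 0.0355). The groups overlapped in neither gene. The 10 log2 differences ran from 2.43 to 3.08 with a median of 2.77, which was 2.14 without Total tumor 1 and 3.28 without Total tumor 2. Over the 4 fits with 1 library left out the difference ran from 2.38 to 2.47 for Mpeg1 and from 1.75 to 4.06 for C1qa. Most of the 10 calls did not hold in all of these fits. They have fewer residual degrees of freedom, so a lost call does not by itself show that the difference rested on 1 library. The same genes gave a rough macrophage level of the tumor itself, a median of 10.1% of the TAM mean in Total tumor 1 and 22.4% in Total tumor 2. The 10 genes ran from 5.81% to 34.4% in the first and from 5.56% to 29% in the second. The RPKM of all transcripts summed to 462116 in Total tumor 1 and 664084 in Total tumor 2, and these libraries also differed by transcript length. The part of either in the 2 medians was not tested, so their difference is not a measure of macrophage number. In LLC 1 and LLC 2 the medians were 0.561% and 2.99%, but the highest of the 10 stood at 34.7% and 41.2%. At least 1 reference gene was therefore not particular to TAM. Emr1, which encodes F4/80 and was part of the gate, stood at 162 and 230 RPKM against 18.7 and 25.1 (log2 3.09, SE 0.75, adjusted p = 0.0164, and 0.0645, 0.094 and 0.0502 without TAM 1, TAM 2 and Total tumor 1).

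**Figure D1:**
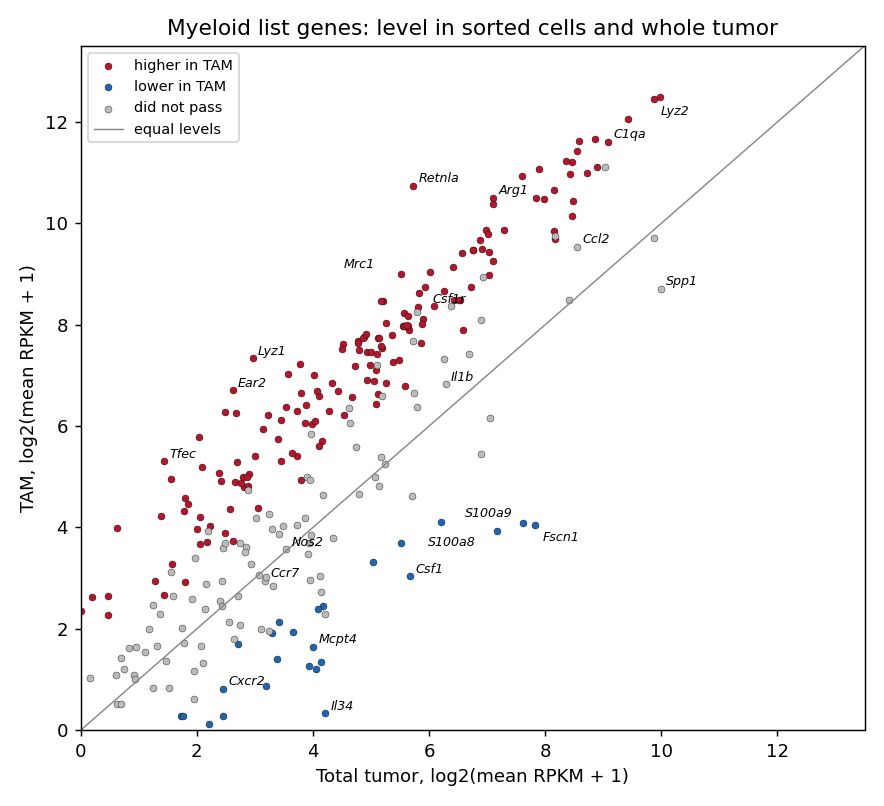
Mean level of the 282 tested myeloid genes in Total tumor (horizontal) and TAM (vertical), both as log2(mean RPKM + 1), with genes that rose in TAM in red, those that fell in blue, those that did not pass in grey and a line at equal levels. Most genes form a band above the line, Retnla, Lyz1, Ear2 and Tfec stand above that band, and S100a8, S100a9 and Fscn1 stand far below the line.

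Retnla showed the largest difference of all genes among those that passed, reached a mean of at least 10 RPKM in TAM or Total tumor and did not overlap. It encodes a secreted resistin-like protein of alternatively activated macrophages. Its level was 1054 and 2360 RPKM in TAM and 93.2 and 10.4 in Total tumor (log2 5.59, SE 1.06, adjusted p = 0.00655). The difference ran from 4.07 without Total tumor 2 to 7.12 without Total tumor 1, and the adjusted p stayed between 0.00264 and 0.0497 over the 4 fits with 1 library left out. LLC and Fibroblast held 2.92 to 28.4 RPKM. The groups did not overlap, but the 2 Total tumor libraries differed from each other more than the 2 TAM libraries did.

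Lyz1 was next among the myeloid genes. It encodes the P-type lysozyme, an enzyme that cleaves bacterial cell walls, while its neighbour Lyz2 encodes the M-type lysozyme of macrophages. Lyz1 stood at 102 and 220 RPKM in TAM and at 8.87 and 4.70 in Total tumor (log2 4.33, SE 0.43, adjusted p = 0.000804). Lyz2 was far more abundant at 5994 and 5181 against 595 and 1269.7, with a smaller difference (log2 2.68, SE 0.86, adjusted p = 0.0447). Without TAM 1, TAM 2 or Total tumor 1 the adjusted p of Lyz2 was 0.16, 0.134 and 0.133. The groups overlapped in neither gene. The 2 genes are close copies, and how reads common to both were assigned is not given in the sources used here, so the split of reads between them is uncertain. TAM 2 had more Lyz1 and less Lyz2 than TAM 1.

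The promoters of Retnla and Lyz1 are shown because they had the largest differences among the myeloid genes, and that of Lyz2 because it is a close copy of Lyz1. Each sequence is the 250 bases before the transcription start in RefSeq, build GRCm38.p6, read 5′ to 3′ on the gene's strand. Retnla lies on the plus strand of chr16:48842359-48842608, Lyz1 on the minus strand of chr10:117292869-117293118 and Lyz2 on the minus strand of chr10:117282273-117282522. Capitals mark matches on either strand to a PU.1-type core (GAGGAAGT), a C/EBP-type motif (TTGCNNAA) or a STAT6-type motif (TTC and GAA around any 4 bases).
Retnla: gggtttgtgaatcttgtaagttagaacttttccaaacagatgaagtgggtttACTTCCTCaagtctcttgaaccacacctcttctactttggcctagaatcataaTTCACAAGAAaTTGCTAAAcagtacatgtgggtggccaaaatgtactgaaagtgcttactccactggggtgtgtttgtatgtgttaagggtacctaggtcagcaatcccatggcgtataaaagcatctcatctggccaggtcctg
Lyz1: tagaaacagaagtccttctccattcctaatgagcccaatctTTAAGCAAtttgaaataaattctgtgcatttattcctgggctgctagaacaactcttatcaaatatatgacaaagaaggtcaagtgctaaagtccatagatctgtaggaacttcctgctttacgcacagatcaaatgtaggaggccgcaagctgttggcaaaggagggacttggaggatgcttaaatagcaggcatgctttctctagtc
Lyz2: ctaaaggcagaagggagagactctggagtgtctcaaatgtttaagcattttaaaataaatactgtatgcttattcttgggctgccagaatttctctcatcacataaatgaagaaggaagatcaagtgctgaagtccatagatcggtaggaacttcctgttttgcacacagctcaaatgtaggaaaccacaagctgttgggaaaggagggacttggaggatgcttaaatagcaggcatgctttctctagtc
Retnla held a match to each of the 3 motifs, with no overlap between them. Lyz1 held 1 match to the C/EBP-type motif, and Lyz2 held none of the 3. The 2 lysozyme sequences were identical at 200 of 252 aligned positions (79.4%). Among the 32851 promoter windows of 300 bases in the RefSeq table, 3.2% held the first motif, 10.8% the second and 6.95% the third. A match describes letters in the window and not a bound site.

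By that rule the 15 largest rises over all genes were, beside Retnla and Lyz1, those of Ear2 (log2 3.87), Tfec (3.86), Ear12 and Ear3 (both 3.81), Mgl2 (3.76), Ccl24 (3.74), Ms4a8a (3.63), Rgs1 (3.62), Cd163 (3.53) and Arg1 (3.52), and of the short microRNA hairpins Mir7050 (4.42), Mir8114 (4.34) and Mir6955. Rgs1 encodes a regulator of chemokine receptor signals, and the others are described with their groups. Mir6955 was listed at 0 in both Total tumor libraries and stood at 12.8 and 21.4 RPKM in TAM. Reads of a host transcript that covers a hairpin cannot be told apart from its own here, and the highest mean of Mir8114 was in Fibroblast.

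**Figure D2:**
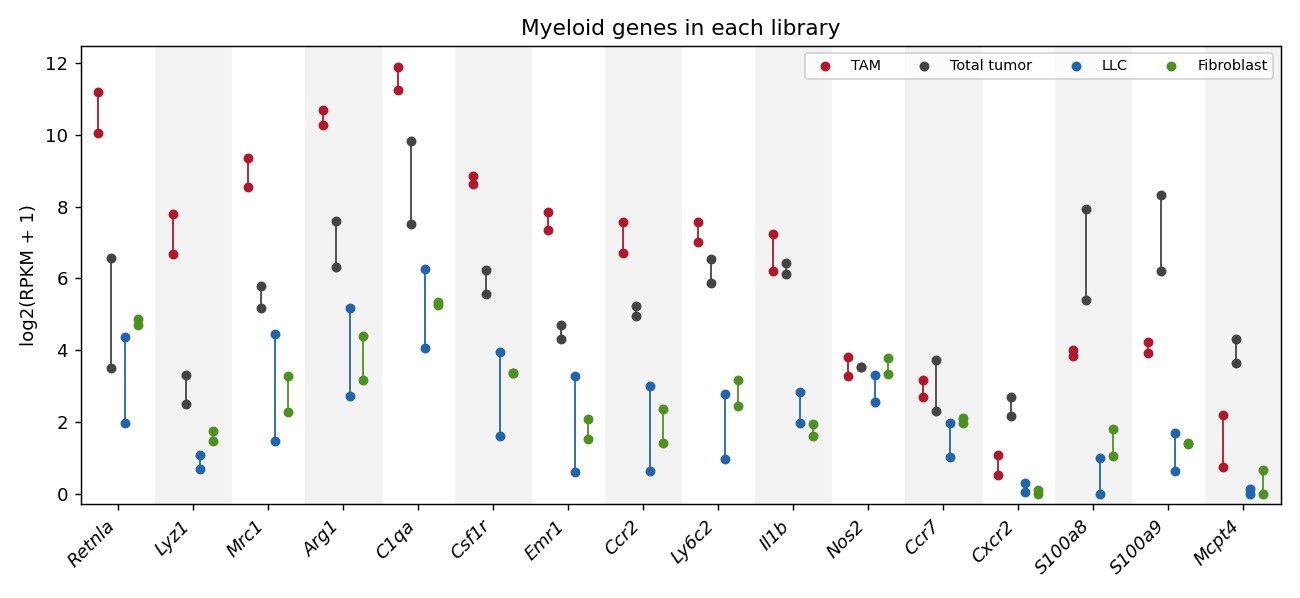
Level of 16 myeloid genes in every library as log2(RPKM + 1), where each pair of points joined by a line is the 2 libraries of a group (red TAM, dark grey Total tumor, blue LLC, green Fibroblast). From Retnla to Emr1 both TAM points lie above both Total tumor points, for Il1b, Nos2 and Ccr7 the groups overlap, and for Cxcr2, S100a8, S100a9 and Mcpt4 both TAM points lie below.

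Genes of alternative activation rose as a list, with 15 of 19 tested members higher, 4 that did not pass and a median log2 difference of 2.60. Of the 15 calls, 11 held in each of the 4 fits with 1 library left out. Mrc1, the mannose receptor that also binds collagen, stood at 376 and 652 RPKM in TAM and at 54.4 and 35.2 in Total tumor (log2 3.47, SE 0.87, adjusted p = 0.0185). Its adjusted p was 0.0618 without TAM 1, 0.106 without TAM 2 and 0.0631 without Total tumor 2. Arg1, which encodes an arginase, stood at 1230 and 1661 against 78.5 and 194 (log2 3.52, SE 0.81, adjusted p = 0.0134, and 0.0588 without TAM 1 and 0.0773 without TAM 2). The galactose-binding lectins Mgl2 (log2 3.76) and Clec10a (3.47) and the haemoglobin scavenger receptor Cd163 (3.53) rose and held in all 4 of these fits. The group has exceptions. Chil3, a chitinase-like protein that is a common marker of the same state, stood at 14.0 and 20.4 in TAM and at 8.69 and 18.4 in Total tumor (log2 0.39, adjusted p = 0.514), and Cd209a (1.27), Alox15 (0.85) and Socs2 (-0.10) did not pass either. Chil4 was listed at 0 in every library.

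The classical genes were split. Of 15 tested, 7 rose, 8 did not pass, and the median was 1.19. The transcription factor gene Irf5 (log2 2.27), the costimulatory receptors Cd40 (2.19) and Cd86 (1.99), the cytokine Tnf (2.14) and the ectoenzyme Cd38 (1.89) rose, and all but Tnf of these 5 held with any 1 library left out (Tnf adjusted p = 0.0933 without TAM 1). Nos2, the inducible nitric oxide synthase, stood at 8.71 and 12.999 RPKM in TAM and at 10.6 in both Total tumor libraries (log2 0.00, SE 0.34, adjusted p = 0.997). Il1b, an inflammatory cytokine, stood at 151 and 73.2 against 85.0 and 69.0 (log2 0.46, SE 0.42, adjusted p = 0.434). The groups overlapped in both genes. Il1a, Il6, Il12b, Irg1, Ptgs2 and Fpr2 also did not pass, with differences from -0.01 to 1.19. Of 20 genes that respond to tissue dissociation 7 rose and 13 did not pass, with a median of 1.52 and summed RPKM of 6762 and 3992 in TAM against 2291 and 1306 in Total tumor. Of these 7 calls 1 held in each of the 4 fits with 1 library left out. Their part in the differences of cytokine genes was not tested.

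Most genes linked to resident macrophages rose, with 13 of 17 higher, 1 lower, 3 that did not pass and a median of 2.74. Sepp1, a selenium carrier, stood at 1401 and 1279 RPKM against 161 and 112 (log2 3.31, SE 0.45, adjusted p = 0.00202). The hyaluronan receptor Lyve1 (log2 3.08), the folate receptor Folr2 (3.04), the lipid-binding protein Cd5l (3.08) and the carbonyl reductase Cbr2 (2.95) rose as well. Of the 13 calls 6 held in each of the 4 fits with 1 library left out. Lyve1 lost its call without TAM 1 or TAM 2 and Folr2 without TAM 1 (highest adjusted p 0.0654 and 0.063). Timd4 and Vsig4, markers of long-lived tissue macrophages, stood at 7.65 and 1.44 and at 4.26 and 0 in TAM and did not pass (log2 0.98 and 0.25). Gata6, a factor of peritoneal macrophages, fell (log2 -1.42, and adjusted p = 0.105 without TAM 1), and its highest levels of 7.08 and 8.92 RPKM were in Fibroblast. The 2 TAM libraries differed within this list: TAM 2 was above TAM 1 in 2 of 17 genes, with a median log2 difference of -0.84.

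Monocyte genes were less uniform. Of 11 classical monocyte genes, 4 rose, 1 fell and 6 did not pass. F13a1, which encodes a coagulation factor subunit, stood at 289 and 416 RPKM against 45.1 and 26.8 (log2 3.28, SE 0.66, adjusted p = 0.0082, and 0.0578 without TAM 2). Ccr2, the receptor that brings monocytes out of the marrow, stood at 104 and 190 against 30.1 and 36.3, with no overlap, and did not pass (log2 2.06, SE 0.73, adjusted p = 0.0615). It passed with upper-quartile rescaling (adjusted p = 0.042) and in the fit of TAM and Total tumor alone (0.0405), and with 1 library left out its adjusted p ran from 0.108 to 0.265. Ly6c2, a surface marker of inflammatory monocytes, stood at 190 and 128 against 57.8 and 92.5 (log2 1.08, adjusted p = 0.187). Vcan, a matrix proteoglycan, fell from 89.3 and 57.2 to 10.8 and 21.4 (log2 -2.15), and LLC held 140 and 141. Among 10 nonclassical monocyte genes, Nr4a1, Treml4 and Cd300e rose (log2 2.10, 1.62 and 1.33) and 7 did not pass. These included Cx3cr1, the fractalkine receptor, with a log2 difference of 1.29. None of the 7 monocyte calls upward held in each of the 4 fits with 1 library left out.

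Lists of phagocyte function rose in full or in part. All 8 genes of lysozyme and the phagocyte oxidase rose, all 5 Fc receptors did (median 2.90), and so did 18 of 22 other pan-myeloid genes (median 2.26). Among 14 lysosomal proteases 8 rose, led by Ctss (log2 2.93), Ctsc (2.84), Lgmn (2.64), Ctsh (2.47) and Ctsd (2.33). Ctsl, another cathepsin, stood at 946 and 723 RPKM in TAM, at 781 and 1095 in Total tumor and at 1125 and 1089.8 in LLC (log2 -0.16, adjusted p = 0.794). Lipid handling genes rose in 9 of 14 cases, with Lpl (2.89), Pltp (2.85) and Apoe (2.79) in the lead. Spp1, the matrix protein osteopontin, was at 604 and 232 against 961 and 1070.1, with 1420.3 and 1105 in LLC, and did not pass (log2 -1.44, adjusted p = 0.0928). Of 16 lectins and scavenger receptors 10 rose, led by Clec4b1 (3.30) and Clec4a3 (2.88), and Colec12 fell (-1.68), with its highest mean in Fibroblast. With any 1 library left out 1 of the 8 lysozyme and oxidase calls held, 1 of 5 Fc receptor, 6 of 18 pan-myeloid, 3 of 8 protease, 6 of 9 lipid and 5 of 10 lectin calls did.

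Antigen presentation genes rose in 6 of 11 cases, with 5 that did not pass and a median of 2.45. Cd74, the invariant chain of MHC class II, stood at 3087 and 5459 RPKM against 631 and 744 (log2 2.58, SE 0.80, adjusted p = 0.0398). H2-Eb1, H2-DMa, H2-Ab1, H2-Aa and H2-DMb1 differed by 2.45 to 2.53. None of the 6 calls held in each of the 4 fits with 1 library left out, and for Cd74 the adjusted p without 1 library ran from 0.073 to 0.183. H2-Oa, H2-Ob and H2-Eb2 did not pass (log2 0.16 to 0.25). TAM 2 was above TAM 1 in 9 of the 11 genes, with a median difference of 0.82. Marker genes of B cells, which also carry MHC class II, had summed RPKM of 70.6 and 21.2 in TAM and of 67.7 and 2.3 in Total tumor. Their part in the MHC class II values was not tested.

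Chemokine genes went different ways. Ccl24, which draws eosinophils, rose from 2.72 and 3.46 RPKM to 44.0 and 64.8 (log2 3.74, SE 0.47, adjusted p = 0.00152). The monocyte attractants Ccl8 (3.32), Ccl6 (3.15), Ccl9 (2.95) and Ccl4 (2.20) rose as well, and 8 of 21 did in all. Of these 8, Ccl24 alone held in each of the 4 fits with 1 library left out. Another 12 did not pass, among them Ccl2 at 878 and 607 against 326 and 421 (log2 0.98, adjusted p = 0.117), and Cxcl1 (-1.87), Cxcl12 (-1.25) and Cxcl14 (-0.77), whose highest means were in Fibroblast. Ccl11, an eosinophil attractant, fell (log2 -2.05) and was at 431 and 618 in Fibroblast, but its adjusted p was 0.0655 without TAM 1 and 0.0502 without Total tumor 1. Complement genes showed a like division: 6 of 12 rose, led by properdin (Cfp, log2 2.89) and the anaphylatoxin receptors C3ar1 (2.68) and C5ar1 (2.49), while C3, C2, C1ra, C1s1 and Serping1 did not pass (-1.70 to 0.77). Of the 6 complement calls 1 held with any 1 library left out.

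The growth factors that macrophages depend on stood apart from their receptors. Csf1, the ligand of Csf1r, fell from 59.2 and 41.3 RPKM in Total tumor to 6.04 and 8.35 in TAM (log2 -2.64, SE 0.28, adjusted p = 0.000872). Il34, the other ligand of that receptor, stood at 10.5 and 24.5 in Total tumor and at 0 and 0.515 in TAM (log2 -3.80, SE 0.45, adjusted p = 0.00128). The 0 in TAM 1 and the value in TAM 2 equal about 0 and 3.9 estimated reads. Fibroblast held the highest mean of both, at 146 and 144 RPKM for Csf1 and 26.8 and 16.03 for Il34, and both falls held with any 1 library left out. Csf3, the neutrophil growth factor, fell too (log2 -2.09, adjusted p = 0.039), but without TAM 1, TAM 2, Total tumor 1 or Total tumor 2 its adjusted p was 0.155, 0.121, 0.0672 and 0.103. The receptor subunits Csf2rb2 (2.12), Csf2ra (1.92) and Csf2rb (1.79) rose, and of the 3 only Csf2rb2 held with any 1 library left out.

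Among 16 transcription factor genes 11 rose, 1 fell and 4 did not pass, and 5 of the 11 held with any 1 library left out. Tfec, a relative of Mitf found in macrophages, stood at 34.6 and 42.4 RPKM against 1.86 and 1.55 (log2 3.86, SE 0.38, adjusted p = 0.000796). Batf (2.40), Klf4 (2.34) and Cebpa (2.14) rose as well, with the highest mean of Klf4 in Fibroblast and none of the 3 calls holding without TAM 1. Cebpe, a factor of late granulocyte and macrophage development, was at 3.02 and 5.24 in TAM and listed at 0 in both Total tumor libraries. Spi1, which encodes PU.1, the central factor of myeloid cells, stood at 363 and 300 against 38.7 and 125, with no overlap, and did not pass (log2 2.22, SE 0.76, adjusted p = 0.0544). Gfi1, a factor of neutrophil and lymphoid development, fell (log2 -1.46, and adjusted p = 0.0894 without TAM 1) and stood at 2.98 and 2.29 in LLC. In the Ms4a family of membrane proteins 4 of 7 rose, led by Ms4a8a at 71.9 and 80.2 against 6.79 and 3.94 (log2 3.63, SE 0.46, adjusted p = 0.00157).

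**Figure D3:**
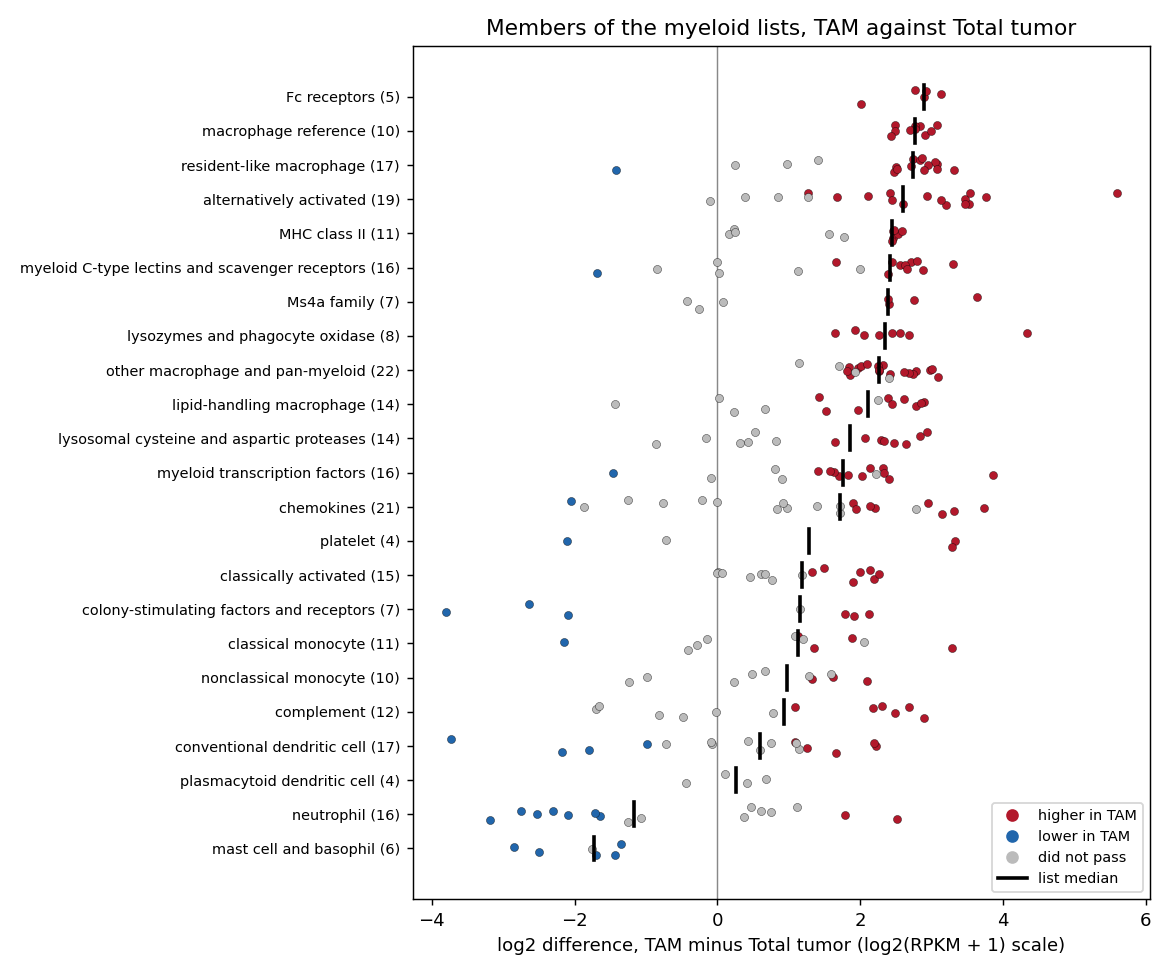
Log2 difference, TAM minus Total tumor on the log2(RPKM + 1) scale, of each tested gene in the 23 myeloid lists with at least 4 tested members (number in brackets), with genes that rose in red, those that fell in blue, those that did not pass in grey and list medians as black bars. The medians run from 2.90 for the Fc receptors down to -1.16 for neutrophil and -1.73 for mast cell and basophil genes.

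Neutrophil genes made up 7 of the 25 genes that fell. Of 30 listed genes 16 were tested, 13 were too low and Ly6g was not analysed here. Of the 16, 7 fell, 2 rose and 7 did not pass, with a median of -1.16. The median was -0.40 without Total tumor 2 and -1.89 without Total tumor 1, and it was 0.37 over the fewer genes that reached 5 RPKM in at least 2 libraries. It was -0.61 with quantile normalization, where 4 rose and 4 fell, and -0.63 with the length correction, where 5 rose. S100a8 and S100a9, with transcripts of 486 and 519 bases, lie in the shortest length group. There Total tumor 2 was above Total tumor 1 by a median log2 difference of 0.75. In the fit of TAM and Total tumor alone none of the 7 passed by limma, with adjusted p from 0.0544 to 0.154. S100a9 stood at 17.8 and 14.3 RPKM in TAM and at 72.7 and 319 in Total tumor (log2 -3.18, SE 0.65, adjusted p = 0.0087, and 0.0566 without TAM 2). TAM held more S100a9 than LLC and Fibroblast, which stood between 0.558 and 2.25. S100a8 stood at 15.1 and 13.2 against 41.5 and 244 (log2 -2.75, SE 0.76, adjusted p = 0.0261). Its adjusted p was 0.0997 without TAM 1, 0.114 without TAM 2 and 0.0509 without Total tumor 2, where the difference was -1.49.

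Cxcr2, the receptor that neutrophils follow into tissue, stood at 0.422 and 1.10 RPKM in TAM and at 3.51 and 5.49 in Total tumor (log2 -1.65, SE 0.30, adjusted p = 0.006). These levels correspond to an estimated 11 and 14.9 reads against 106.5 and 78.8, and its call was the only 1 of the 7 to hold in each of the 4 fits with 1 library left out. Stfa2l1, a stefin of neutrophils, fell (log2 -2.30, adjusted p = 0.0456) with 4.15 and 28.9 RPKM in Total tumor, and its call was lost without TAM 1, TAM 2 or Total tumor 2. Lcn2, G0s2 and Il1r2 fell too (-2.53, -2.09 and -1.71) and each lost its call without at least 1 TAM library, but their highest means were in Fibroblast, at 37.1 and 57.5 RPKM for Lcn2. The granule genes Camp, Mpo and Ctsg were listed at 0 in all libraries, and Elane and Ngp did not exceed 0.432 RPKM. The members that rose were Padi4, which citrullinates histones, at 30.2 and 28.5 against 3.73 and 4.92 (log2 2.52, adjusted p = 0.00102), and the collagenase Mmp8 (1.79, adjusted p = 0.00497). Csf3r, the receptor for the neutrophil growth factor, stood at 32.0 and 29.9 against 12.2 and 15.5 and did not pass (log2 1.12, adjusted p = 0.0769). In Total tumor 2, 15 of the 16 genes were above Total tumor 1.

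The promoters of S100a8 and S100a9 are shown beside those of Retnla and Lyz1 because these neighbouring genes both fell. S100a8 lies on the plus strand of chr3:90668821-90669070 and S100a9 on the minus strand of chr3:90695722-90695971, with the same build, source, window and capitals as above.
S100a8: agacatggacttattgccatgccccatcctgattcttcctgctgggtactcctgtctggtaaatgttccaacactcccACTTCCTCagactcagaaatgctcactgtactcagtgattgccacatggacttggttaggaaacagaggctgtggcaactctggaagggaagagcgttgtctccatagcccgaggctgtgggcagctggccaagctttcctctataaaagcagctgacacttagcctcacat
S100a9: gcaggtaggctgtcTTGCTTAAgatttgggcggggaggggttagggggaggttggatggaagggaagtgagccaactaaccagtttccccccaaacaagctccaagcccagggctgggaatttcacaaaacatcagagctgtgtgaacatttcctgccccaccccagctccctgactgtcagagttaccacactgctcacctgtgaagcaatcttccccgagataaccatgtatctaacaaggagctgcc
S100a8 held 1 match to the PU.1-type core, the same letters as in Retnla, and S100a9 held 1 match to the C/EBP-type motif. The PU.1-type core was found in 5 of 26 neutrophil list genes with a promoter in the table, in 1 of 13 alternative activation genes and in 1 of 7 reference genes. The C/EBP-type motif was found in 7, 3 and 1 of these.

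Mast cell and basophil genes fell. Of 15 listed, 6 were tested, 5 fell and 1 did not pass, while 9 were too low to be tested. By limma none rose, and none was higher at an unadjusted p under 0.05. Mcpt4, a chymase of connective tissue mast cells, stood at 3.56 and 0.680 RPKM in TAM and at 11.5 and 18.7 in Total tumor (log2 -2.50, SE 0.50, adjusted p = 0.00807). Hdc, which makes histamine, stood at 3.18 and 2.52 against 9.28 and 14.0 (log2 -1.70, SE 0.29, adjusted p = 0.00479). The groups overlapped in neither gene, and both calls held with any 1 library left out. Cpa3 (-1.44, adjusted p = 0.0403) and Cma1 (-1.35, adjusted p = 0.0496), 2 more granule proteases, lost their calls without TAM 2 (adjusted p = 0.222 and 0.264) and without Total tumor 2 (0.13 and 0.142). Tpsb2, a tryptase, stood at 5.07 and 2.68 against 8.13 and 27.0 and did not pass (adjusted p = 0.0602). Gata2, the factor of mast cells and basophils, fell (-2.85), but LLC held 23.7 and 13.6 RPKM.

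Dendritic cell genes went both ways. Of 17 tested, 5 rose, 4 fell and 8 did not pass. Among all genes tested 11.3% rose and 23.9% fell, so falls in 4 of 17 are near the share of all genes. The factor gene Batf3 (log2 2.22), the chemokine Ccl17 (2.19), Wdfy4 (1.66), Kmo (1.25) and the integrin Itgax (1.08) rose, and Batf3 and Ccl17 held in each of the 4 fits with 1 library left out. Fscn1, an actin bundler of mature dendritic cells, stood at 12.8 and 18.5 RPKM against 161 and 292 (log2 -3.73, SE 0.34, adjusted p = 0.000654), but LLC held 213 and 167. Clec9a (-2.17), Cacnb3 (-1.80) and Cadm1 (-0.98) fell too and had their highest means in LLC. Clec9a rests on few reads, an estimated 22.6 and 8.2 in Total tumor, 1.4 and 0.2 in TAM and 24.2 and 10.3 in LLC. The call of Cadm1 was lost without TAM 1, TAM 2 or Total tumor 1 (adjusted p = 0.12, 0.16 and 0.0919), and those of the other 3 falls held in each of these fits. Ccr7, the homing receptor of migrating dendritic cells, stood at 5.44 and 8.03 against 12.2 and 3.97, so that the groups overlapped (log2 -0.09, adjusted p = 0.918). Xcr1 and Flt3 were too low to be tested, at no more than 2.67 RPKM. None of 4 plasmacytoid genes passed, and none had an unadjusted p under 0.05 by limma.

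Eosinophil and platelet lists were represented by few genes. Ear2, an eosinophil-type ribonuclease, stood at 45.3 and 162 RPKM against 6.72 and 3.56 (log2 3.87, SE 0.60, adjusted p = 0.00315). Its relatives Ear3 and Ear12 had identical values to each other (48.0 and 180 in TAM), so the reads of these copies cannot be told apart. The other 8 eosinophil genes, Epx and Prg2 among them, were too low, at no more than 0.82 RPKM. Pf4 and Ppbp, chemokines stored by platelets, stood at 2835 and 1488 and at 450 and 253 in TAM against 115 and 360 and 24.6 and 45.8 in Total tumor (log2 3.33 and 3.29, adjusted p = 0.00897 and 0.00134, and 0.065 for Pf4 without TAM 1). The platelet receptor genes Gp9 and Gp6 and the platelet tubulin gene Tubb1 were listed at 0 in all libraries. Gp1bb fell (log2 -2.10, adjusted p = 0.0166 by limma), but its highest mean was in Fibroblast and its call did not hold with any 1 library left out.

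**Figure D4:**
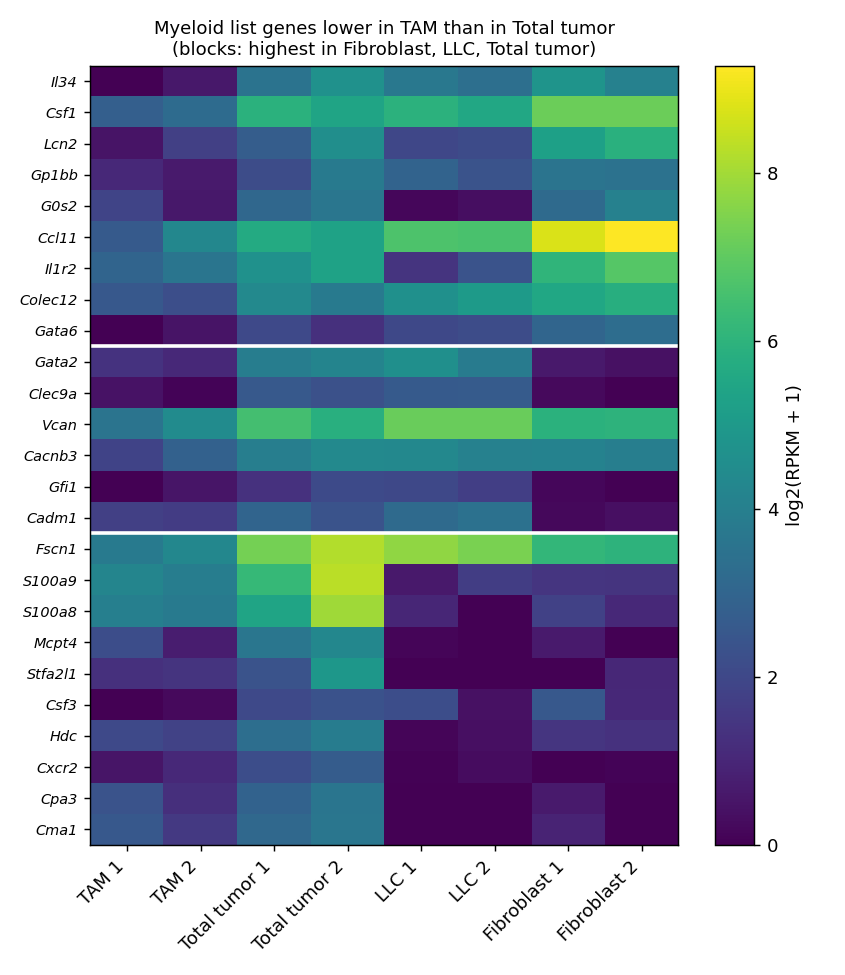
The 25 myeloid list genes lower in TAM than in Total tumor (rows) in all 8 libraries (columns), with colour giving log2(RPKM + 1) from 0 (dark) upward and white lines between the 9 genes whose highest mean was in Fibroblast, the 6 highest in LLC and the 10 highest in Total tumor. S100a9, S100a8, Mcpt4, Hdc, Cxcr2, Cpa3 and Cma1 are brighter in Total tumor than in LLC and Fibroblast, and S100a9 and S100a8 are the brightest of these.

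The 25 genes that fell differed in where they were most abundant. The highest mean was in Total tumor for 10, in Fibroblast for 9, in LLC for 6 and in TAM for 0 of them. Genes that Total tumor held above all 3 sorted populations numbered 21, or 0.158% of those tested, and 7 of them were on the myeloid lists. By margin over the highest sorted population, S100a9, S100a8, Mcpt4, Pglyrp1, Gm10872, Gzmb, Xcl1, Klrd1, Hdc and Cxcr2 led. Pglyrp1, a bactericidal protein of neutrophil granules that was on no list, stood at 3.54 and 15.9 RPKM in Total tumor and at 0.517 and 0 in TAM. Gzmb, Xcl1 and Klrd1 are genes of cytotoxic T and natural killer cells. The number of such genes depended on single libraries: it was 0 without TAM 1, 2 without TAM 2, 11 without Total tumor 2 and 482 without Total tumor 1.

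The second comparison took the mean of the 10 reference genes off each library, so that a value of 0 means that a gene rose as much as the macrophage reference. Each value is thus the first difference less an amount common to all genes, and the genes keep their order. By this measure 90 of the 282 myeloid genes were below the reference, against 85.2% of all genes tested, and 1 was above (0.00751% of all genes). None of the 157 genes that rose was below it, and every myeloid gene that fell was. The SE was nearly alike between genes, so a call below is close to a cut on the first difference. These counts are therefore no separate evidence. The 100 that did not pass in the first comparison divided into 65 below the reference and 35 that passed in neither. Below the reference, beside the genes that fell, were Chil3, Nos2, Il1b, Ptgs2, Ccr7, Ccl5, Ctsl, Spp1 and all 4 plasmacytoid genes. By list, 12 of 16 neutrophil genes, all 6 mast cell genes, 9 of 17 dendritic cell genes, 6 of 15 classical genes, 5 of 14 proteases, 4 of 14 lipid handling genes and 4 of 16 lectins and scavenger receptors were below, but 2 of 19 alternative activation genes and 2 of 17 resident-type genes.

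The gene above the reference was Retnla (2.85 beyond it, SE 0.92, adjusted p = 0.00351). This call ended without TAM 2 (2.14, adjusted p = 0.13), without Total tumor 2 (0.90, adjusted p = 0.492), with TAM and Total tumor alone (adjusted p = 0.0505) and with each gene's own variance (adjusted p = 0.14). Lyz1 stood 1.59 beyond the reference and did not pass (adjusted p = 0.116). The reference adds the same noise to every gene, and limma then found no spread of variances between genes, so these p-values are too small. With each gene's own variance the count below was 73, and it was 36 without TAM 1, 55 without TAM 2, 41 without Total tumor 1 and 92 without Total tumor 2.

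Markers of other cells gave the setting of these values. In TAM 9 of 16 fibroblast genes fell, with a median of -2.34 (-1.29 without TAM 1 and -3.37 without TAM 2), and Col1a1 stood at 18.0 and 123 RPKM against 257 and 206 (log2 -2.25, adjusted p = 0.0692). Of 20 cell cycle genes 19 fell, with a median of -2.05. With any 1 library left out 5 of the 9 fibroblast calls and 15 of the 19 cell cycle calls held. T and natural killer cell genes fell in 2 of 12 cases, Gzmb and Nkg7, neither of which held in all of these fits, and 10 did not pass. That is no more than the 23.9% of all genes tested that fell. None of 8 B cell genes passed, and none had an unadjusted p under 0.05 by limma. By the same rule as for Retnla, the 15 largest falls over all genes were those of Dkk2 (log2 -4.63), Tm4sf1 (-4.57), Asns (-4.53), Mxra8 (-4.48), Rhox2d (-4.46), Arhgef25 (-4.42), Crabp1 (-4.38), Apcdd1 (-4.36), Cpe (-4.36), Ntn1 (-4.34), Dusp9 (-4.32), F2r (-4.32), Gpx8 (-4.32), Snord99 (-4.31) and Mir675, which was listed at 0 in both TAM libraries with 22.8 and 22.9 RPKM in Total tumor. As for the hairpins above, reads of a host transcript that covers Mir675 or Snord99 cannot be told apart from their own here. None of the 15 is on a myeloid list, and the highest mean was in LLC for 8, in Total tumor for 6 and in Fibroblast for 1. Dkk2, a modulator of Wnt signalling, stood at 2.87 and 4.52 RPKM in TAM, 105 and 121 in Total tumor and 164 and 202 in LLC.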

How the data were processed

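RNA of 8 libraries, 2 for each of 4 groups, was sequenced from 200 ng of total RNA with oligo-dT priming and 50 bp reads, per the labels' protocols. The authors deposited 1 table of RPKM values per transcript, labelled RPKM per the file headers. STAR, HOMER and the build mm9 come from the submitters' processing notes, which give no versions. The treatment of reads that match several genes, the strand setting and the read total behind the RPKM are not stated there.

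The transcript with the highest mean RPKM over the 8 libraries stood for each symbol (31645 transcripts, 23952 symbols, 4341 of them with more than 1 transcript). Depth was estimated from the spacing of low values, of which 56.8% to 60.4% came out as whole reads, too few for a test on counts. The 13311 genes that reached 1 RPKM in 2 libraries or more were fitted as log2(RPKM + 1) on the 4 groups with limma 3.58.1 in R 4.3.3 (mean-variance trend, 4 residual degrees of freedom), with Benjamini-Hochberg adjustment over all of them. The reference comparison repeated the fit on log2 values minus the mean of the 10 reference genes in each library. The fit was tested on simulated data with 50 changed genes of each size. It called 12% of rises of log2 1, 48% of log2 2 and 74% of log2 3, and 60% of changes of log2 -2. Of 13101 unchanged genes it called 3.

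The text names the 15 genes with the largest difference in each direction among those that passed, did not overlap and had a mean of at least 10 RPKM in the higher group, the first 10 by margin of those above all sorted groups, and members of 35 gene lists (479 of 485 genes matched). The members and lists were chosen with earlier results of these data known. Alternatives were another pseudocount, filter, scaling, variance model, transcript choice, length correction, replicate block, reference and library set. The crossed block and the fit without moderation were chosen after seeing the data. Promoters came from RefSeq (344 list genes matched). Some list genes are counted but not reported by name here.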

Additional observations from a re-analysis of the deposited data

How the results depend on the processing

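The signs of the 157 higher and 25 lower myeloid genes did not change in any alternative in which they were tested, but the counts did. Several alternatives could not change a sign, because they alter the test and not the difference between the group means. These were treat, the fit without a trend, each gene's own variance, TAM and Total tumor alone, and both replicate blocks. Higher, lower, myeloid higher and myeloid lower genes numbered 629, 1276, 96 and 7 with TAM and Total tumor alone, and 177, 661, 33 and 5 when a difference of at least 2-fold was tested with treat. With 1 library left out they ran from 773 to 1869, from 1612 to 4121, from 69 to 149 and from 15 to 27. A correction on transcript length gave 2715 higher genes, quantile normalization 2055 lower ones, and each gene's own variance 940 higher, 54 myeloid higher and 10 myeloid lower. Myeloid genes above the reference numbered 0 with TAM and Total tumor alone and with each gene's own variance, and 0 to 1 with 1 library left out. Those below numbered 52 with treat and 36 to 92 with 1 library left out. Genes that Total tumor held above all sorted groups numbered 7 at a pseudocount of 0.1, 4 without a filter, 11 at a filter of 5 RPKM, 8 with upper-quartile rescaling, 7 with quantile normalization, 10 with the length correction, 0 with treat, 0 with each gene's own variance, and 0 to 482 with 1 library left out. At the 5 RPKM filter the medians of the neutrophil and the T and NK cell lists turned to 0.37 and 0.25, over fewer genes. The platelet median was -0.10 without a filter. With 1 library left out the B cell median ran from -0.67 to 1.93 (-0.07 without TAM 1) and the erythroid median from -1.51 to 0.24 (0.23 without TAM 2). The B cell genes Ms4a1 and Blk ran from -1.20 to 1.35 and from -0.95 to 1.07, and both were lower by limma without Total tumor 2 (adjusted p = 0.019 and 0.0415). Where the construction of the alternative does not show it, the cause was not tested.

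The deviations of libraries of one number correlated from -0.36 (TAM and Total tumor) to 0.27 (TAM and LLC) over the 6 pairs of groups, across genes, which are not independent replicates. As 3 of the 6 were negative, the numbers were not taken to pair the libraries. The 3 negative values were those with Total tumor (-0.36, -0.23 and -0.18), and the 3 between sorted groups were positive (0.27, 0.16 and 0.21). Replicate 1 was the deeper library in every group, with 8.55 to 10.39 M estimated reads against 4.29 to 4.73 M in replicate 2. The number therefore follows a difference in depth. With the replicate block 1325 genes were higher and 2666 lower, 156 and 24 of them myeloid, and 1 myeloid gene was above and 93 below the reference. Under the block 11 genes passed as higher in Total tumor than in every sorted group. Among genes described above, Ccr2 and Spi1 passed under the block (adjusted p = 0.0224 and 0.031 by limma), and Cpa3 and Cma1 did not (0.0569 and 0.06). With the numbers crossed, 1766 were higher and 3869 lower, 164 and 33 of them myeloid, and 24 passed as higher in Total tumor than in every sorted group. With 2 libraries a group and 4.46 to 9.96 M estimated reads, genes of a few RPKM rest on few reads, so a difference that did not pass was not detectable here and is not shown to be absent.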

Other observations

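The 2 libraries of a group differed from each other by gene group. TAM 2 was above TAM 1 in 16 of 16 fibroblast genes (median log2 difference 1.98) and in 9 of 11 MHC class II genes (0.82), and it was above in 1 of 8 B cell genes (-1.64), 3 of 20 dissociation genes (-0.84) and 0 of 6 mast cell genes (-0.88). Total tumor 2 was above Total tumor 1 in 8 of 10 macrophage reference genes (1.00), in 15 of 16 neutrophil genes (0.62) and in 6 of 6 mast cell genes (0.60), and it was above in 0 of 8 B cell genes (-2.52) and 1 of 12 T and natural killer cell genes (-1.51). These are differences between single libraries and were not tested.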
